A study of Mus musculus with 10 samples.

Results

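Of the 10 bulk RNA-seq samples of the series, 6 are TOX KO, and these 6 are described here in 2 sets that differ in library number. Libraries KO-1, KO-2 and KO-3 (title replicates 1 to 3) form the first set, and libraries KO-4, KO-6 and KO-8 (title replicates 4 to 6) form the second. Both sets carry the same labels. They are CD4 T cells with the transgenic SMARTA receptor, which recognises the GP61 peptide, and they lack TOX. As naive cells they were given to B6 mice that bore the GP61-expressing melanoma line B16-GP61 and had been treated with cytoxan (cyclophosphamide). The hosts received KO and WT cells together, told apart by the Ly5 markers. After 11 days they were recovered from the tumour-draining lymph node (tdLN) and sorted as CD4+, Ly5.1+, Ly5.2- cells with low PD1, LAG3 and CD39. The other 4 samples are TOX WT SMARTA cells from the same kind of host, sorted from the tdLN as Ly5.1+, Ly5.2+ cells with high PD1, LAG3 and CD39, and they appear here only where their values stand beside a difference between the KO sets. The labels give no age, do not say how TOX was deleted and do not tie samples to mice, sorts or library preparations. The library number is therefore a name and not a known batch, and the spread between samples may be technical.

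The sets were chosen by their read-out: these same count tables, in which gene detection and the similarity of the samples separate the libraries by number. The differences between the sets are therefore a description, with their spread and without p-values for single genes. Counts of genes past a threshold are given only as a background. Counts are from 1 gene table per library, and levels are given as CPM, counts per 1000000 counted reads, after TMM scaling over the 10 libraries, which removes differences in sequencing depth. A difference is the log2 fold difference fitted by edgeR to the 6 KO libraries, set 1-3 minus set 4-8, with its standard error (SE) and n = 3 in each set. The sets are said not to overlap where every library of 1 set lies above every library of the other.

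TOX is a nuclear HMG-box protein that T cells induce under lasting antigen contact and that is known for its part in the exhausted state, where the inhibitory receptors PD-1 (Pdcd1) and LAG3 and the ectonucleotidase CD39 (Entpd1) are high. Naive and memory-like T cells are known for KLF2, TCF-1 (Tcf7), the IL-7 receptor and CCR7, which hold them in a resting state and in circulation through lymph nodes. Antigen contact induces immediate early genes of the Fos, Jun, Egr and Nr4a families and phosphatases of the Dusp family. In the amplification used here a reverse transcriptase copies whole mRNAs and a polymerase multiplies the cDNA, and dense G and C is known to be hard to copy.

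The genes that separated the sets differed in the composition of their transcripts, and a few sequences are therefore shown before the values. Local GC is used here for the GC content of the richest 200-base window of a gene's longest protein-coding transcript (GENCODE M21, GRCm38). The stretches below show, for 3 genes that were high in set 1-3 and 2 that were low, the richest 200-base window that lies inside 1 coding exon, with runs of at least 8 G or C in capitals. Jund (chr8:70699520-70699719, plus strand, its single exon) and Klf2 (chr8:72319716-72319915, plus strand, exon 2 of 3) have windows of 82% GC, with 94 and 82 bases in such runs. Dusp2 (chr2:127336300-127336499, plus strand, exon 1 of 4) has 80.5% GC and 78 bases in runs. Fos (chr12:85474975-85475174, plus strand, exon 2 of 4) has 66% GC, Il7r (chr15:9508051-9508250, minus strand, exon 8 of 8) has 54.5%, and neither window holds a run of that length. The median local GC of all tested genes is also 66%, so Fos is not poor in GC by this measure.

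Jund: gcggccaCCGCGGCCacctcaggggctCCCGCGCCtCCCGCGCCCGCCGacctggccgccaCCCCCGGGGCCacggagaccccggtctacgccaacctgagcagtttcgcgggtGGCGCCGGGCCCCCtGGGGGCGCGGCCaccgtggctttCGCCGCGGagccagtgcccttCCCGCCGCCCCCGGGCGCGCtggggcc
Klf2: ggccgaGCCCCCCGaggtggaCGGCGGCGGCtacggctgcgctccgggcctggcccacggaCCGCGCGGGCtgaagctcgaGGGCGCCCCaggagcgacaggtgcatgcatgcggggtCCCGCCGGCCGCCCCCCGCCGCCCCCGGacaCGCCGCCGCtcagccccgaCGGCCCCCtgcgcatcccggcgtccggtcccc
Dusp2: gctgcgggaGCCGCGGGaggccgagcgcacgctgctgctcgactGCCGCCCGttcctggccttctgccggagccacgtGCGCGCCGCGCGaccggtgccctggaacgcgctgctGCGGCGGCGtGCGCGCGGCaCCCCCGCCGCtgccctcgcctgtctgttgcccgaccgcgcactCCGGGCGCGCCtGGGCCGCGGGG
Fos: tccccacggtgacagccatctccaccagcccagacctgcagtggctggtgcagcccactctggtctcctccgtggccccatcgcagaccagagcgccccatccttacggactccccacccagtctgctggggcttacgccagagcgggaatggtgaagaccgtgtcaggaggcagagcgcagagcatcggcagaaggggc
Il7r: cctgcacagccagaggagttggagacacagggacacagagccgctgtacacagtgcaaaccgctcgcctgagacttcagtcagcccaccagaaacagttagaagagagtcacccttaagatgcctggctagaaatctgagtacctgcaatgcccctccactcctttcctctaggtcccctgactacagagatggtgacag

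Depth did not separate the sets: totals ran from 40987266 to 55784453 counts in set 1-3 and from 36028980 to 42111992 in set 4-8. The number of genes with at least 1 count was 15163, 15348 and 15873 in KO-1, KO-2 and KO-3, and 17304, 16348 and 16629 in KO-4, KO-6 and KO-8. Every library of set 1-3 thus detected fewer genes than every library of set 4-8, with means of 15461 ± 368 and 16760 ± 491 (SD, n = 3 each). At a minimum of 10 counts the sets overlapped, at 12028 to 12907 against 12868 to 13573 genes. After every library had been thinned to 31939816 counts, the smallest total of the 10, they no longer overlapped, at 11736 to 12249 against 12491 to 13373 genes. The mean GC content of the counted transcripts was 54.0%, 53.3% and 53.0% in set 1-3 and 52.3%, 52.5% and 52.4% in set 4-8. The share of counts in the 100 largest genes was alike, with means of 25.3% in each set. Trbv13-1, the beta segment of the SMARTA receptor, held 98.1% to 99.0% of Trbv counts in the 6 libraries, while Trav14, the alpha segment, held 81.6% to 87.0% of Trav counts in set 1-3 and 94.7% to 96.6% in set 4-8. Immunoglobulin genes held 0.0835% to 0.186% of all counts. Of 20 B and plasma cell markers, the sum was 2457 to 3669 CPM in set 1-3 and 1341 to 2409 CPM in set 4-8, and that of 24 myeloid and dendritic markers was 308 to 685 and 379 to 641 CPM. None of the 20 was at 0 in all 6 libraries, and of the 24 Clec9a was. Of the 18 tested B and plasma cell markers 16 overlapped between the sets, beside 8462 of 12919 over all genes tested. Their median log2 difference of 0.12 turned to -0.09 under upper quartile scaling. Xbp1 and Fcer2a were the 2 higher in set 1-3. Xbp1 was at 675, 714 and 411 CPM against 146.5, 57.8 and 145.6 CPM, so it weighed heavily in the difference of the sums. The part of these cells in the differences was not tested.

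**Figure D1:**
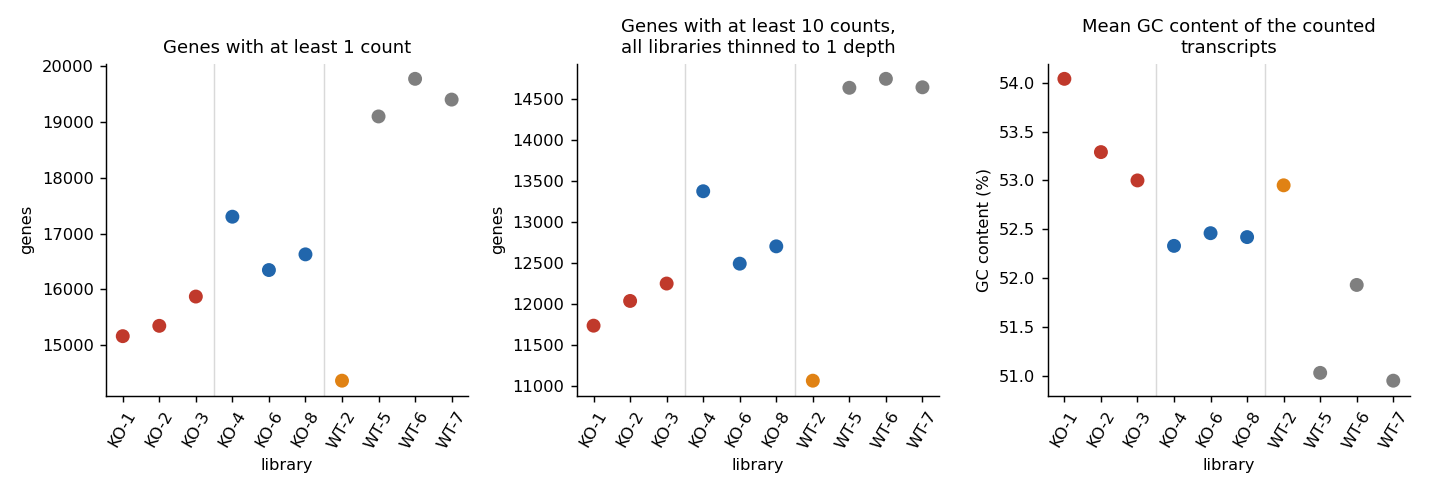
Number of genes with at least 1 count (left), number with at least 10 counts after thinning all libraries to 31939816 counts (middle) and mean GC content of the counted transcripts in percent (right), 1 point per library. KO-1, KO-2 and KO-3 (red) lie below KO-4, KO-6 and KO-8 (blue) in genes and above them in GC content, and WT-2 (orange) has the fewest genes of the 10.

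Tox itself (chr4:6686353-6991557, minus strand, GRCm38) was counted in every KO library, at 15.3, 15.4 and 19.1 CPM in set 1-3 and 68.1, 42.8 and 25.2 CPM in set 4-8. The sets did not overlap, and the WT libraries lay higher, at 168 to 355 CPM. The log2 difference between the KO sets was -1.45 (SE 0.40), and removal of the GC and length trends described below left -0.36. The counts cover whole genes, so they do not show whether the deleted part of Tox was read.

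The sort markers differed unevenly, although both sets were sorted as low for all 3. Pdcd1 was at 481, 379 and 399 CPM in set 1-3 and 326, 515 and 489 CPM in set 4-8, so the sets overlapped. Lag3 was at 427, 321 and 168 CPM against 110, 83.5 and 127 CPM, higher in each library of set 1-3 by 1.51 (SE 0.36) on the log2 scale. Entpd1 was at 0.0284, 0.0636 and 3.12 CPM against 18.4, 13.8 and 3.21 CPM, with KO-3 and KO-8 nearly level. In bulk samples fewer cells that express a gene and less RNA per cell cannot be told apart.

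Over all genes, 12919 of 53656 gene names passed edgeR's filter on low counts. At an adjusted p under 0.05 in edgeR's quasi-likelihood test, 1240 genes were called higher in set 1-3 (9.60%) and 407 lower (3.15%). The sets did not overlap for 2445 genes that were higher in set 1-3 (18.9%) and 2012 that were lower (15.6%). Since the sets were selected on these counts, these shares are the background for the gene lists and support nothing by themselves. The calls depended on the fit: with all 10 samples in 3 groups edgeR called 0 genes in either direction, with 2136 at an unadjusted p under 0.05, while DESeq2 on the 6 KO libraries called 1715 higher and 1122 lower. The lower genes numbered 82 without KO-4, and the higher genes 711 without KO-8. Of all calls 75.3% were higher in set 1-3, against 58.8% under upper quartile scaling and 87.0% under scaling to the genes of the T cell receptor complex, which moved the median of all genes by -0.24 and 0.21. The 15 lists of T cell state genes held 280 tested genes. Of these, 45 were higher in every library of set 1-3 (16.1%) and 72 were lower in every one (25.7%). The genes named below are those of a rule that took up to 4 non-overlapping members of each list with a mean of at least 8 CPM, a fixed group of sort markers and state genes, and the 10 largest differences in each direction.

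Genes of the naive, memory and homing list were more often higher than lower in set 1-3. Of its 29 members, all tested, 13 were higher without overlap and 6 were lower, beside 18.9% and 15.6% over all genes. The median log2 difference was 0.45, against -0.02 over all genes tested. With the local GC trend described below removed it was 0.22, against 0.16 over all genes. After joint removal of the trends it was 0.57, against 0.12. Klf2, the factor that keeps lymphocytes quiescent and recirculating, was at 2050, 1830 and 998 CPM in set 1-3 and 19.4, 18.7 and 24.8 CPM in set 4-8. That is a log2 difference of 6.27 (SE 0.36), and no other gene of the list differed as much. Btg1, an antiproliferative factor, was at 2662, 2624 and 2816 CPM against 298, 174 and 272 CPM. Tob1, of the same antiproliferative family, was at 21.4, 16.3 and 23.4 CPM against 1.53, 0.33 and 1.95 CPM. Igfbp4, a secreted binder of insulin-like growth factors that naive T cells express, was at 1038, 529 and 140 CPM against 8.62, 17.3 and 62.8 CPM. For Igfbp4 both sets were spread wide, and KO-3 and KO-8 lay nearest to each other.

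Not all genes of that state moved alike. Tcf7, the factor of naive and stem-like T cells, was at 1380, 1340 and 1331 CPM in set 1-3 and 628, 631 and 563 CPM in set 4-8, which is 1.15 (SE 0.16) on the log2 scale and tight within both sets. Ccr7, the receptor that brings T cells into the lymph node, was at 1270, 958 and 979 CPM against 540, 847 and 713 CPM. Lef1, the partner of Tcf7, was at 253, 254 and 256 CPM against 199, 231 and 201 CPM, separate but only 0.27 (SE 0.17) apart, and the difference turned to -0.44 with local GC removed and -0.24 with all trends removed. Il7r, the receptor chain for the survival cytokine IL-7, went the other way, at 2.38, 6.23 and 3.36 CPM against 36.8, 12.0 and 15.3 CPM, a log2 difference of -2.42 (SE 0.62). S1pr1, the receptor for exit from the node and a known target of KLF2, overlapped between the sets, at 288, 331 and 173 CPM against 259, 233 and 262 CPM.

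**Figure D2:**
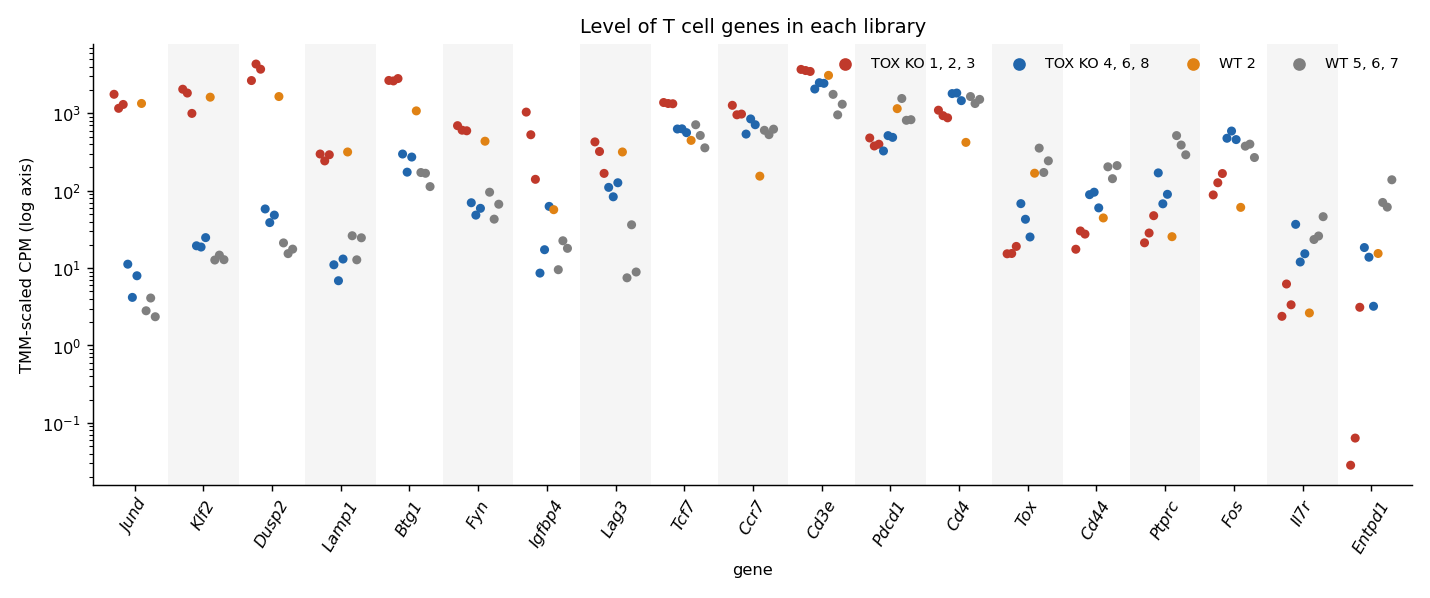
TMM-scaled CPM on a log axis of T cell genes in each of the 10 libraries, 1 point per library. From Jund to Lag3 the points of KO-1, KO-2 and KO-3 (red) lie above those of KO-4, KO-6 and KO-8 (blue), with WT-2 (orange) above the other WT libraries (grey); from Cd4 to Entpd1 red lies below blue.

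Immediate early genes had the highest positive median of the T cell lists, 0.71 over 28 members. Among them 11 were higher without overlap in set 1-3 and 2 were lower, beside 18.9% and 15.6% over all genes. Jund, the constitutive member of the Jun family, was at 1763, 1161 and 1303 CPM in set 1-3 and 11.2, 4.18 and 7.96 CPM in set 4-8, a log2 difference of 7.50 (SE 0.47). Dusp2, a nuclear phosphatase of activated lymphocytes, was at 2654, 4337 and 3719 CPM against 58.1, 38.8 and 48.4 CPM. Dusp5, which acts on nuclear ERK, was at 409, 185 and 112 CPM against 7.15, 5.42 and 10.3 CPM. Other members of the same programme did not all share this direction. Fos, the partner of Jun proteins in AP-1, was at 88.2, 127 and 167 CPM against 476, 591 and 458 CPM, lower in set 1-3 by -2.0 (SE 0.28) on the log2 scale. Cd69, an early surface marker of activation, was lower too, at 32.5, 156 and 157 CPM against 233, 199 and 180 CPM. Nr4a1 and Egr2, which report receptor signalling, overlapped between the sets, with ranges of 501 to 1125 against 305 to 651 CPM and 310 to 814 against 347 to 508 CPM. Egr1, of the same family as Egr2, was higher in set 1-3, at 1062, 927 and 600 CPM against 160, 108 and 177 CPM. Its log2 difference of 2.54 (SE 0.30) was 1.42 after joint removal of the trends described below. With local GC alone removed it was 0.74.

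Genes of the T cell receptor complex were abundant in all 6 libraries and differed in both directions, 1 higher and 3 lower without overlap among 8, with a median log2 difference of -0.01 that turned to 0.18 under scaling to these genes. Cd3e, a signalling chain of the complex, was at 3696, 3575 and 3478 CPM in set 1-3 and 2063, 2488 and 2443 CPM in set 4-8. Cd4, the co-receptor, was at 1098, 933 and 875 CPM against 1801, 1829 and 1459 CPM. Trbc2, the constant part of the beta chain, was at 2777, 4819 and 6545 CPM against 7520, 10766 and 9487 CPM. Among 27 signalling genes, 4 were higher without overlap and 9 lower, beside 18.9% and 15.6% over all genes. The median of the signalling genes, -0.02, also turned positive, to 0.19, under that scaling. Fyn, a Src family kinase of the receptor, was at 693, 606 and 595 CPM against 69.9, 48.4 and 59.2 CPM, 3.41 (SE 0.22) on the log2 scale. Dgkz, the diacylglycerol kinase that dampens receptor signals, was at 2150, 1235 and 888 CPM against 419, 333 and 309 CPM. Cblb, the ubiquitin ligase that restrains activation, was lower, at 103, 72.3 and 69.3 CPM against 280, 228 and 173 CPM. Ptprc, the CD45 phosphatase that carries the Ly5 marker, was at 21.2, 28.4 and 47.6 CPM against 170, 67.8 and 89.9 CPM.

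Effector genes that separated the sets were mostly lower in set 1-3. Among 27 tested TH1 and effector genes, 8 were lower without overlap and 0 higher, beside 15.6% and 18.9% over all genes. Their median of -0.73 was -0.33 after joint removal of the trends described below. Cxcr6, a chemokine receptor of tissue effector cells, was at 0, 1.17 and 3.32 CPM in set 1-3 and 21.8, 9.25 and 16.7 CPM in set 4-8. Nkg7, a granule membrane protein, was at 24.5, 40.1 and 54.0 CPM against 162, 78.7 and 68.6 CPM. Ifng was under 6 CPM in all 6 libraries, at 0.397, 0.0212 and 2.08 CPM against 4.86, 4.58 and 5.29 CPM. Tbx21, the TH1 master factor, overlapped, at 25.6, 68.9 and 9.79 CPM against 10.4, 2.66 and 5.91 CPM, and Cxcr3 overlapped too. Of 16 cytotoxic and granule genes, 2 were higher and 5 lower, and the median of -0.23 turned to 0.25 after joint removal. The widest of the higher ones was Lamp1, a lysosomal membrane protein, at 298, 243 and 292 CPM against 11.0, 6.87 and 13.1 CPM.

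Helper and regulatory genes had negative medians that depended on the trends to unlike degrees. Of 19 follicular helper genes 3 were higher and 7 lower without overlap, beside 18.9% and 15.6% over all genes. Their median of -0.44 was -0.01 after joint removal of the trends described below. Il21, the cytokine that follicular helper cells give to B cells, was at 60.3, 90.2 and 36.1 CPM in set 1-3 and 244, 190 and 177 CPM in set 4-8. Bcl6, the factor that defines these cells, was at 10.7, 4.45 and 5.96 CPM against 21.8, 22.6 and 12.9 CPM, while Cxcr5 overlapped. Of 18 regulatory T cell genes 2 were higher and 4 lower, near the shares over all genes, and the median of -0.55 turned to 0.17 after joint removal. Foxp3, the factor that defines regulatory T cells, was at 0, 0.827 and 0 CPM against 30.8, 5.13 and 2.38 CPM. Within set 4-8 Foxp3 was thus carried mostly by KO-4. Nt5e, the CD73 ectonucleotidase, was at 69.6, 47.8 and 65.0 CPM against 171, 141 and 118 CPM. Of 9 tested TH2 and TH17 genes, 1 was higher and 2 lower, also near those shares, Gata3 overlapped, and Il4 was at 15.1, 18.0 and 19.7 CPM against 24.0, 31.9 and 34.8 CPM. The median of these 9 genes, -0.79, stayed negative after joint removal, at -0.53.

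Co-inhibitory receptors gave 1 higher gene, Lag3, and 3 lower ones among 16, beside 18.9% and 15.6% over all genes. Tigit was at 3.06, 7.14 and 1.24 CPM in set 1-3 and 36.1, 17.7 and 17.1 CPM in set 4-8, a log2 difference of -2.63 (SE 0.71). Btla was at 36.6, 54.6 and 59.5 CPM against 146, 110 and 142 CPM. Ctla4 and Cd5 overlapped between the sets. Of 18 regulators of exhaustion, 3 were higher and 4 lower, near those shares. Their median of 0.12 turned to -0.12 under upper quartile scaling. Nfil3, a bZIP factor of activated T cells, was at 216, 161 and 67.3 CPM against 11.8, 11.5 and 29.5 CPM. Irf4, which acts with BATF after receptor signals, was at 98.7, 126 and 38.3 CPM against 225, 160 and 182 CPM. Tox2, the nearest relative of Tox in this list, overlapped because KO-4, at 18.8 CPM, lay with set 1-3 at 16.7, 16.1 and 22.3 CPM and apart from 2.40 and 2.33 CPM in KO-6 and KO-8.

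Costimulatory genes gave 2 higher and 5 lower among 18, beside 18.9% and 15.6% over all genes. Their median of -0.09 turned to 0.09 under scaling to the genes of the T cell receptor complex. Tnfsf8, the CD30 ligand, was at 80.8, 146 and 96.0 CPM in set 1-3 and 440, 319 and 311 CPM in set 4-8. Cd84, a SLAM family receptor, was at 16.4, 21.3 and 23.7 CPM against 67.6, 63.9 and 68.2 CPM, with little spread in either set. Icos was at 156, 214 and 217 CPM against 391.8, 299 and 350 CPM. Tnfsf11, which encodes RANKL, was on the other side, at 35.7, 27.3 and 64.6 CPM against 9.64, 5.70 and 10.5 CPM. After joint removal of the trends described below, all 5 lower costimulatory genes fell below 50% of their difference or turned sign. Over all genes 954 of 2012 lower ones did. Tnfsf8 went from -1.73 to -0.80 and Cd84 from -1.705 to -0.71. Among 20 chemokine receptor and adhesion genes, 4 were higher and 5 lower, near the same shares. Itgb7, the beta chain of the gut homing integrin, was at 3012, 1712 and 1355 CPM against 750, 353 and 659 CPM. Itga4, its alpha chain, was lower in set 1-3, at 7.88, 15.4 and 10.1 CPM against 40.3, 23.0 and 23.6 CPM. Joint removal took the log2 difference of Itga4 from -1.39 to -0.41. Cd44, the marker of antigen-experienced T cells, was at 17.5, 30.2 and 27.5 CPM against 89.0, 95.7 and 60.03 CPM.

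Of interferon response and cell cycle genes 25 of 32 and 22 of 35 overlapped between the sets. Over all genes 8462 of 12919 overlapped, 18.9% were higher and 15.6% lower, so overlap is not particular to these lists. Of the interferon genes 7 were lower without overlap in set 1-3 and 0 higher, and 6 of the 7 followed the trends jointly. Their median of -0.49 turned to 0.10 after joint removal. Stat2, which relays interferon signals, was at 42.1, 49.7 and 33.9 CPM in set 1-3 and 88.7, 90.7 and 80.2 CPM in set 4-8. Of the proliferation genes 10 were lower and 3 higher, with a median of -0.53 that was -0.24 after joint removal. Ccnb1, the mitotic cyclin B, was at 1.81, 3.31 and 1.05 CPM against 24.5, 13.5 and 5.27 CPM. Rrm2, a ribonucleotide reductase subunit made in S phase, was at 20.3, 11.6 and 4.61 CPM against 65.0, 40.4 and 43.8 CPM. Dut, which also serves nucleotide supply, was on the other side, at 89.7, 131 and 116 CPM against 43.3, 16.1 and 40.3 CPM. Mki67 did not pass the filter.

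Among protein-coding genes whose mean reached 8 CPM, the 10 largest differences in each direction lay outside the T cell lists, apart from Jund and Cxcr6. Genes of lower mean are not ranked, and some differed more, such as Foxp3 at -5.51 (SE 2.01). Ano8 was at 53.0, 31.8 and 35.5 CPM in set 1-3 and at 0.0254, 0.0440 and 0.0226 CPM in set 4-8. Cebpb, a bZIP factor, was at 93.9, 93.3 and 113 CPM against 0.102, 0.0881 and 0.181 CPM. Sox4, an HMG-box factor, was at 16.4, 25.4 and 23.8 CPM against 0.0763, 0 and 0 CPM. On the low side, Cltc, the clathrin heavy chain, was at 7.46, 13.0 and 5.22 CPM against 128, 85.3 and 109 CPM. Il1r1, an interleukin-1 receptor, was at 0, 0.0424 and 0.0184 CPM against 48.5, 8.08 and 9.03 CPM. Each of the 10 largest higher genes had a local GC of at least 76.5%, and among 10 equal classes of the tested genes by local GC the upper 2 start at 75% and 79%.

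The differences varied with the composition of transcripts. Over the 12876 tested genes with a value, GC content of the whole transcript held 8.58% of the variance of the log2 difference, local GC held 24.8%, transcript length 1.00%, and local GC and length together 31.6%. All these shares are descriptions across genes, which are not replicates. Spearman's rho of the difference was 0.28 with whole-transcript GC, 0.43 with local GC and -0.13 with length, and it was 0.40, 0.42 and 0.44 for windows of 50, 100 and 300 bases. Among the 7602 genes whose mean reached 8 CPM the shares were larger, 12.8%, 41.8% and 2.49%, and 52.7% for local GC and length together. The slope of the difference was 0.66 log2 units per 10 percentage points of whole-transcript GC. By library the slopes against the mean of the 6 were 0.70, 0.29 and -0.003 in KO-1, KO-2 and KO-3, and -0.41, -0.27 and -0.31 in KO-4, KO-6 and KO-8. Per 10 points of local GC they were 0.65, 0.36 and 0.26 against -0.31, -0.55 and -0.42. KO-1 was the steepest library in both, and KO-3 had no slope with whole-transcript GC but one with local GC.

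**Figure D3:**
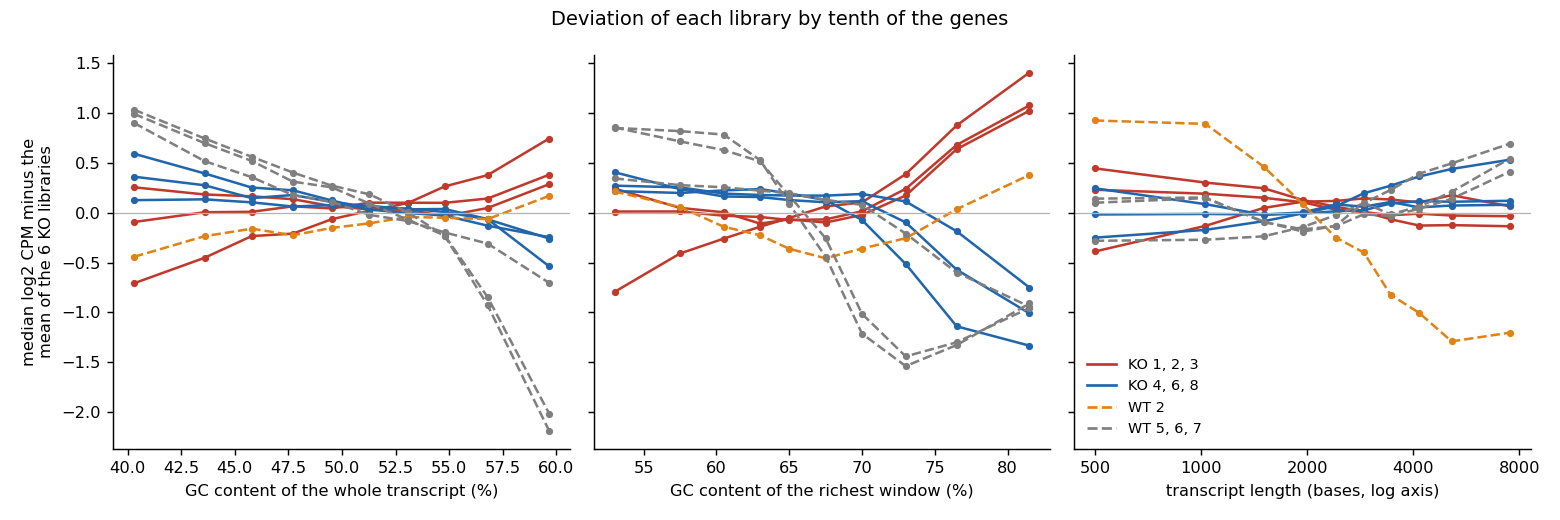
Median deviation of each library (log2 CPM minus the mean of the 6 KO libraries) in 10 equal classes of the genes, against whole-transcript GC in percent (left), local GC in percent (middle) and transcript length in bases on a log axis (right). Above a local GC of about 70% the lines of KO-1, KO-2 and KO-3 (red) climb and those of KO-4, KO-6 and KO-8 (blue) drop, while with length the 2 sets differ less than WT-2 (orange) differs from the rest.

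The relation had a bend. Genes with a local GC under 60% had a median log2 difference of -0.34 (2887 genes), and those of 60% to 70% had -0.20 (5474 genes). From 70% to 75% the median was 0.21, from 75% to 80% it was 1.30 (1550 genes), and at 80% and over it was 2.10 (921 genes). In that last class 578 genes (62.8%) were higher in every library of set 1-3 and 21 (2.28%) were lower, against 134 (4.64%) and 563 (19.5%) under 60%. Length divided these classes further. At a local GC of 80% and over the median was 4.08 for 54 transcripts under 1500 bases, 2.88 for 394 of 1500 to 4000 bases and 1.35 for 473 of 4000 bases and over. At 60% to 70% the same length classes had medians of 0.19, -0.23 and -0.70. Under 60% they were -0.10, -0.56 and -0.85. Short GC-rich transcripts thus had the highest median, and long transcripts with a local GC under 60% the lowest.

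T cell state genes lay along the same relation. Of the 45 that were higher in every library of set 1-3, 23 had a local GC of at least 75% and the median was 75%. Of the 72 that were lower, 2 reached 75%, 64 were under 70% and the median was 60.5%. The higher ones had a median transcript length of 2245 bases and the lower ones 3384 bases. Over all genes the corresponding medians were 75.5% and 63.5% local GC, and 2549 and 3532 bases.

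**Figure D4:**
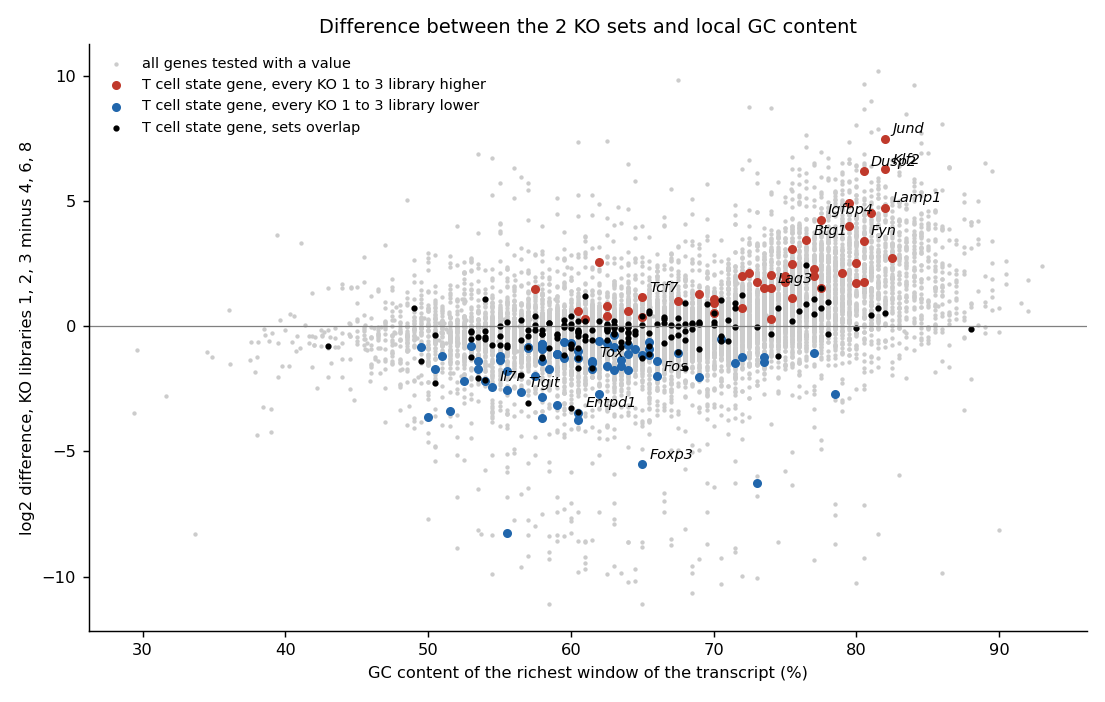
Log2 difference between the KO sets (set 1-3 minus set 4-8) against local GC in percent, 1 point per tested gene, with T cell state genes in colour. Genes higher in every library of set 1-3 (red) gather at 75% and over, near Jund, Klf2, Dusp2 and Lamp1, and genes lower in every one (blue) gather under 70%, near Fos, Il7r, Tigit and Tox.

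To see which differences followed these properties, each library's own smooth trend against them was removed and the fit repeated. A difference is said to follow a trend where it then fell below 50% of its size or turned its sign. With whole-transcript GC alone, 5 of the 45 higher and 2 of the 72 lower T cell genes followed. Over all genes 306 of 2445 and 100 of 2012 did. With local GC alone, 11 and 20 T cell genes did, beside 914 and 557 over all genes. With length alone, 2 and 0 did, beside 103 and 9. With GC content, local GC and length removed together, 16 of the 45 and 39 of the 72 followed, beside 1058 of 2445 and 954 of 2012 over all genes. Over all genes the median moved by 0.18 with removal of local GC and by 0.14 with joint removal, so small positive values after removal are near the background.

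Of the higher T cell genes named here, Jund, Klf2 and Lamp1, each with a local GC of 82%, lost most in size. Klf2 went from 6.27 to 2.69, Lamp1 from 4.74 to 1.64, Tob1 from 4.00 to 1.83, Jund from 7.50 to 3.34 and Fyn from 3.41 to 1.68. Dusp2 went from 6.20 to 3.34 and Dusp5 from 4.94 to 2.76, which leaves more than 50%. Lag3 went from 1.51 to 0.41 and Tnfsf11 from 2.30 to 0.60. Btg1, at 3.44 and 2.91, Igfbp4, at 4.26 and 3.09, and Dgkz, at 2.01 and 1.98, changed less. Tcf7, with a local GC of 65%, went from 1.15 to 1.54 and Ccr7 from 0.61 to 0.92. Even after joint removal Klf2, Dusp2 and Jund stayed at least 2.69 log2 units apart, and their local GC of 80.5% to 82% lies in the uppermost of 10 equal classes of the genes, from 79% to 93%.

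Among the lower genes several state markers came close to 0. Cd4 went from -0.81 to -0.06, Tox from -1.45 to -0.36, Cd44 from -1.70 to -0.44, Btla from -1.40 to -0.38, Il21 from -1.72 to -0.41, Stat4 from -1.37 to -0.33 and Irf4 from -1.11 to -0.11. Icos turned from -0.83 to 0.18. Fos, at -2.0 and -1.84, Tigit, at -2.63 and -2.51, Nkg7, at -1.38 and -1.32, Rrm2, at -2.04 and -1.98, Cblb, at -1.48 and -1.19, and Nt5e, at -1.24 and -1.23, did not. Bcl6 became larger, from -1.45 to -1.90. Il7r went from -2.42 to -1.29 and Ptprc from -1.76 to -0.74.

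**Figure D5:**
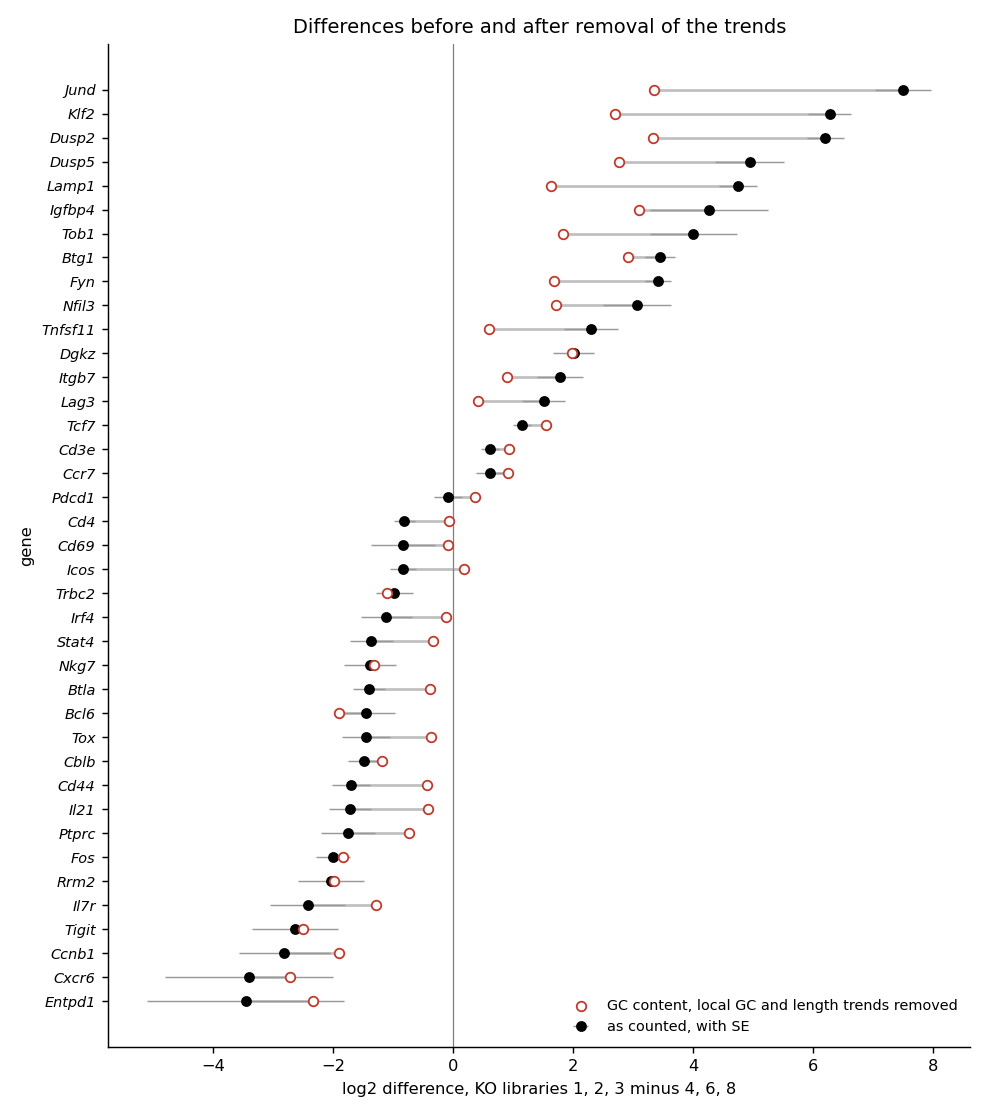
Log2 difference between the KO sets for named T cell genes as counted (black, bar: SE of the edgeR fit, n = 3 in each set) and after joint removal of the GC content, local GC and length trends (open red). Icos and Pdcd1 cross 0, Cd4 and Irf4 end near 0, and Fos, Tigit, Nkg7, Rrm2, Dgkz and Btg1 stay near their place.

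Genes near the limit of detection formed a second group, given here beside measures of library complexity. The part of complexity in their differences was not tested. Within set 1-3, 1029 genes had at least 100 counts in 1 library and under 10 in another, and within set 4-8 there were 580 such genes. The common dispersion of edgeR was 0.61 in set 1-3 and 0.32 in set 4-8 over the same 12919 genes, which are biological coefficients of variation of 0.78 and 0.57. Of the 2012 genes lower in set 1-3 without overlap, 410 had under 10 counts in at least 1 library of that set, and of the 72 T cell genes 14 did. Foxp3, Entpd1, Ifng, Cxcr6 and Bub1b are among the 14. In the other direction 337 of 2445 genes and 2 of 45 T cell genes had under 10 counts in a library of set 4-8. At the extreme, 127 genes had at least 10 counts in all of set 1-3 and under 10 in all of set 4-8, with a median local GC of 75.5% and a median length of 1096 bases. The reverse held for 147 genes, with medians of 61% and 2554 bases. For genes under 2 CPM the median spread within a set was 1.27 log2 units, and for those of 128 CPM and over it was 0.31, so differences of the low genes named here are the less certain ones.

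The WT libraries showed a split of the same kind, in other cells. WT-2 had 11396 genes with at least 10 counts, and WT-5, WT-6 and WT-7 had 14633 to 14933. Jund was at 1342 CPM in WT-2 and at 2.81, 4.11 and 2.35 CPM in the others, Klf2 at 1618 CPM and 12.7, 14.7 and 12.8 CPM, and Dusp2 at 1649 CPM and 21.2, 15.4 and 17.6 CPM. WT-2 thus lay with set 1-3 and the other WT libraries with set 4-8 for these genes. Of the 2445 genes higher in set 1-3 without overlap, 1973 (80.7%) were also higher in WT-2 than in the mean of the other WT libraries, where 47.3% of all tested genes were. Of the 2012 lower genes, 1697 (84.3%) were lower in WT-2 as well. For T cell genes the counts were 36 of 45 and 53 of 72. Across the 12876 genes Spearman's rho between the KO set difference and the WT difference was 0.50, and 0.67 at a mean of at least 8 CPM. These comparisons share no library, but WT-2 is a single library, and the WT libraries also differed in cell makeup: immunoglobulin genes held 0.815% of counts in WT-2 and 7.37% to 16.7% in the others. The part of that in the WT difference was not tested. In WT-2 length weighed more than in the KO sets, since transcripts of 4000 bases and over had a median deviation of -1.17 there and of -0.14 to 0.45 in the KO libraries.

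A few T cell genes kept their difference after joint removal and did not go with WT-2. Immunoglobulin genes held 0.815% of counts in WT-2 and 7.37% to 16.7% in the other WT libraries. The part of that cell makeup in the WT direction of single genes was not tested. After joint removal 29 of the 45 higher genes kept at least 50% of their difference, and 7 of these were not higher in WT-2. Over all genes 1381 of 2445 higher ones kept it and 315 of these were not higher in WT-2, so such genes are not particular to the T cell lists. The 7 T cell genes are Foxo1, Gzmm, Ikzf4, Tcf7, Ccr7, Gpr183 and Ly6c1, a selection made after their values were seen. Foxo1, the factor that drives Klf2 and Il7r in resting T cells, was at 68.9, 67.4 and 87.8 CPM in set 1-3 and 18.2, 8.21 and 6.95 CPM in set 4-8. Its log2 difference of 2.74 was 1.87 after joint removal but 0.61 with local GC alone removed, so it followed local GC. Gzmm, Ikzf4 and Ly6c1 were under 7 CPM in every KO library. Of the 72 lower T cell genes 33 kept at least 50%, and 15 of these were not lower in WT-2. Over all genes 1054 of 2012 kept it and 227 of these were not lower. Among the 15 are Tigit, Nkg7, Trac, Trbc2, Ifng, Il4, Ccnb1 and Rrm2. Trac (-0.66 to -0.15), Trbc2 (-0.98 to -0.49) and Il4 (-0.79 to -0.19) followed local GC when it alone was removed. Sox4 was likewise at 0 CPM in WT-2 and at most 0.0280 CPM in the other WT libraries, so WT-2 did not share its high level in set 1-3.

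The receptor itself read differently in the 2 sets. The Trav14 family, to which the alpha segment of the SMARTA receptor belongs, held 81.6%, 86.0% and 87.0% of Trav counts in set 1-3 and 95.8%, 96.6% and 94.7% in set 4-8. The sets did not overlap, and WT-2, at 94.1%, lay with set 4-8 here. Trbv13-1, in contrast, held at least 98.1% of Trbv counts in all 6 KO libraries.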

How the data were processed

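Bulk RNA of sorted CD4 T cells was amplified with SMART-seq v4 (12 cycles, 2 to 10 ng of total RNA), made into libraries (10 ng of cDNA, 8 PCR cycles) and read on a HiSeq 4000 as paired reads of 50 bases, per the labels' protocols. The authors deposited raw counts per gene name, 1 table per sample, made with featureCounts 1.6.2 on fragments against GENCODE M17 (GRCm38.p6), with no strand option and no option for multi-mapping reads, per the file headers. Overlapping and antisense genes, and near-identical copies, therefore cannot be told apart by strand or split reads. Per the submitters' processing notes, FastQC and STAR were used, with no version given. No column of per-sample values was left unused (0).

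The 2 KO sets, the named members and the gene lists were chosen with earlier results of these data known. The 6 KO libraries were fitted in edgeR 4.0.16 (R 4.3.3; TMM factors, filterByExpr, quasi-likelihood test, p adjusted by Benjamini-Hochberg, threshold 0.05), and log2 CPM used a prior count of 2. Depth was 36028980 to 55784453 counts per KO library. Of 53656 gene names, 28534 matched GENCODE M21 by name, 255 by synonym and 24627 by position, and 240 did not match. GC content, local GC and length are those of the longest protein-coding transcript, or the longest transcript where there is none. The 200-base window was chosen after seeing the data, among windows of 50, 100, 200 and 300 bases. Each library's trend was taken with loess (span 0.5, degree 1) against 1 property, or with a joint smooth in mgcv 1.9.3 (basis 6, or 8 for GC content), and entered the fit as an offset. The genes named are Tox, a fixed group of sort markers and state genes, up to 4 non-overlapping members per list by size of difference whose mean reached 8 CPM, and the 10 largest differences in each direction among protein-coding genes at that mean. The steps were tested on simulated data with known changes. Pairs of libraries within a set all differed by more than sampling noise in a chi-square test of their counts. Alternatives were other scalings and filters, DESeq2 1.42.0, limma 3.58.1 (voom), all 10 samples in 1 fit, thinned counts, trend removal and leaving out each library. Drawings used Python 3.11.15 and matplotlib 3.10.9.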

Additional observations from a re-analysis of the deposited data

Results flagged for a closer look

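Of 26 WT values compared, 9 stood apart, each in WT-2, by a gap to the nearest other WT library that took a larger part of the range of the 4 than Dixon's 95% critical value. Chance sets about 1 in 20 unselected groups apart. The 26 values are ones chosen to be shown here with the data known, so their count cannot be set against that rate. The KO sets of 3 are too small for this comparison. WT-2 was at 1618 CPM for Klf2 where the other WT libraries were at 12.7 to 14.7 CPM, at 1342 CPM for Jund (2.35 to 4.11 CPM in the others) and at 1649 CPM for Dusp2 (15.4 to 21.2 CPM). It was at 436 CPM for Fyn (42.9 to 95.7 CPM), at 1076 CPM for Btg1 (113 to 172 CPM) and at 317 CPM for Lamp1 (12.8 to 26.2 CPM). It was also at 317 CPM for Lag3 (7.49 to 36.3 CPM) and at 287 CPM for Cebpb (0.107 to 0.756 CPM). All 8 genes were also higher in every library of KO set 1-3 than in every library of set 4-8. The ninth value is the number of genes with at least 10 counts, 11396 in WT-2 and 14633 to 14933 in the others. The WT libraries also differ in the share of immunoglobulin counts, 0.815% in WT-2 and 7.37% to 16.7% in the others, and the part of that in these values was not tested.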

How the results depend on the processing

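No paired analysis was possible because the 2 KO sets share no replicate number in the titles. Of the calls with 1240 genes higher and 407 lower in set 1-3, the lower count changed to 796 with upper quartile scaling, 158 with scaling to the T cell receptor complex, 664 among genes whose mean reached 8 CPM and 1122 with DESeq2. Leaving out 1 library at a time gave 711 to 977 higher and 82 to 506 lower genes. With all 10 samples in 1 edgeR fit the counts were 0 and 0 (2136 genes at an unadjusted p under 0.05); the cause was not tested. Removal of local GC and length left 794 higher genes, and joint removal of all 3 trends 933 higher and 488 lower, among them 657 and 172 of the original calls. The higher share of calls was 65.2% at 8 CPM and over, 60.5% with DESeq2, 62.1% after removal of local GC, and 63.8%, 91.5% and 87.7% without replicates 1, 4 and 5. The GC slope difference of 0.66 ranged from 0.47 to 0.83 with 1 library left out, and that in genes with at least 10 counts, -682, from -887 to -448. Of the named genes called, Icos turned to 0.17 without the local GC and length trends and 0.18 without all 3; the cause was not tested. Of 97 named genes whose sets did not overlap, 86 had the same sign under all settings and 97 under those that remove no trend. The 97 were picked for lack of overlap, so leaving out a library could hardly turn their sign. That all kept it without trend removal therefore supports nothing by itself. Depth limits the low genes most.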

Other observations

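Genes outside T cell states are given beside the shares over all genes, of which 18.9% were higher and 15.6% lower without overlap in set 1-3. Of 7 tested mitochondrially encoded genes 3 were lower without overlap in set 1-3. Their median log2 difference of -1.30 was -0.56 after joint removal of the trends. mt-Co1, a subunit of cytochrome c oxidase, was at 15.3, 69.5 and 122 CPM in set 1-3 and 212, 145 and 176 CPM in set 4-8, and KO-1 stood lowest. Joint removal took the log2 difference of mt-Co1 from -1.37 to -0.56. Of 13 heat shock genes 3 were lower and 1 was higher. Hspa5, the chaperone of the endoplasmic reticulum, was at 378, 365 and 402 CPM against 773, 665 and 827 CPM, and its log2 difference went from -0.99 to -0.32. Hspd1, the mitochondrial chaperonin, was at 15.9, 15.1 and 23.0 CPM against 45.2, 32.9 and 49.6 CPM although its local GC is 81%, and joint removal of the trends took its log2 difference from -1.25 to -3.93. Among 25 nuclear genes of oxidative phosphorylation 3 were higher and 2 lower, with a median of 0.15 that turned to -0.08 under upper quartile scaling. Uqcrfs1, the Rieske subunit of complex III, was at 169, 201 and 193 CPM against 45.1, 24.3 and 42.5 CPM. Joint removal took its log2 difference from 2.33 to 0.87. Of 30 ribosomal protein genes 3 were higher and 0 lower, with a median of 0.17 that turned to -0.06 under the same scaling. For oxidative phosphorylation and ribosomal proteins both counts lie below the shares over all genes. Markers of erythroid cells and platelets summed to 41.0 to 395 CPM in set 1-3 and 1.98 to 135 CPM in set 4-8. Those of stroma and endothelium summed to 172 to 212 CPM and 242 to 379 CPM, with Col1a2, Col3a1, Pdpn and Cdh5 at 0 in all 6. Of the 4 tested stroma and endothelium markers 3 overlapped. Pecam1 was lower, at 163, 204 and 210 CPM against 340, 370 and 231 CPM, and made up most of these sums.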
